A study of Mus musculus with 12 samples.

Results

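AP-1 subunits and immediate early genes were examined in primary oligodendrocytes (OLs) of mouse after interference with Egr2. The set comprised 10 genes named by symbol, namely the Fos family (Fos, Fosb, Fosl1 and Fosl2), the Jun family (Jun, Junb and Jund), and Atf3, Ier2 and Arc, out of 56860 named genes in the count table. All 10 had enough counts to be tested, among 16600 tested genes. The cells were O4+ immature OLs taken with magnetic beads from the cortex of newborn C57BL/6J mice, expanded with PDGF-AA and matured with insulin, triiodothyronine and ciliary neurotrophic factor, whereas the labels name the medial prefrontal cortex as the tissue. In the siEgr2 group (n = 6 libraries) the differentiated OLs received an interference reagent against Egr2, and in the siNC group (n = 6 libraries) a scrambled control, and RNA was sequenced 48 h later. In the methods the reagent is called an siRNA in places and a plasmid in others. Neither the labels nor the methods tie a library to an animal or a culture, so the p-values measure the spread between these libraries, which may be technical.

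Proteins of the Fos and Jun families pair through a leucine zipper to form AP-1, a transcription factor that binds the DNA sequence TGAGTCA. Jun proteins can pair with each other or with Fos proteins, whereas Fos proteins need a Jun partner. Immediate early genes are transcribed within minutes of a growth factor or stress signal, without new protein synthesis, because kinases act on factors already bound to their promoters, and their mRNAs are usually short-lived. In glial cells this group of genes is used as a marker of recent stimulation, injury or mechanical stress.

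The libraries differed in depth and in RNA content between the groups. Totals ranged from 28682946 to 39383014 counts in siNC and from 8034251 to 16683677 in siEgr2, and the 18S ribosomal RNA gene Rn18s-rs5 took 0.142% to 1.05% and 10.5% to 16.5% of them, so that neither can be told apart from the treatment. Egr2, the targeted gene, had a normalized read count (CPM, counts brought to 1 common library total with TMM factors) of 3.89 to 7.06 in siNC and 2.22 to 4.86 CPM in siEgr2, with overlap, and its log2 fold change was -0.51 (edgeR adjusted p = 0.0981). The labelled cell type was present, with a summed level of the 7 myelinating OL markers of 6390 to 7198 CPM in siNC and 5855 to 6178 CPM in siEgr2. The 6 astrocyte markers summed to 7521 to 8198 CPM in siNC, above the myelinating OL markers, and 4704 to 5366 CPM in siEgr2. Each astrocyte marker was lower in every siEgr2 library than in any siNC library. Gfap, the highest of them, fell from a mean of 4777 to 3242 CPM (log2 fold change -0.56). By qPCR in primary OLs, the study reported higher Gfap mRNA after Egr2 interference. Precursor markers summed to 2626 to 2829 and 3129 to 3384 CPM, neuron markers to 136 to 155 and 117 to 129 CPM, vascular and fibroblast markers to 303 to 505 and 315 to 372 CPM, and microglia markers to 2.42 to 4.15 and 1.79 to 4.94 CPM, with Aif1 and the endothelial Cldn5 at 0 in all libraries. Of the 4 vascular and fibroblast markers tested, Flt1 (log2 fold change -1.35) and Pdgfrb (-0.56) were called lower. In such bulk samples, fewer cells of a type and less RNA per cell cannot be told apart, and a level cannot be assigned to a single cell type.

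The promoters of the AP-1 genes are shown because these genes differed in their response and are themselves targets of signal-regulated factors. RefSeq sequences of the build GRCm38.p6, which is the build mm10 that the labels name, matched 7 of the 10 genes. The promoter set used here held no entry for Fosl1, Ier2 and Arc. The RefSeq starts of Fosl2 and Atf3 lie inside the GENCODE genes, which also have a start further upstream, and the RefSeq window of Jund ends at 70697738 on chromosome 8, upstream of the GENCODE start at 70698949 without adjoining it. The Junb window, on the minus strand, comes no closer than 84978749 to the GENCODE start at 84978718. The Fosb window, also on the minus strand, reaches 19310046 and so runs into the GENCODE gene, which starts at 19310051. Of each, the 250 bases before the annotated start are given in the direction of transcription for the 3 genes that passed the adjusted p below (Fosl2, Junb and Atf3), for Fosb, and for Fos and Jun, the highest-expressed member of the Fos family and the reference gene of the Jun family. Capitals mark matches on either strand to TGAGTCA (the AP-1 site), TGACGTCA (the cyclic AMP response element, CRE), TGACG (the core of the CRE, which also lies within it), GCGTGGGCG or GCGGGGGCG (sites of Egr proteins), TGACATCA (a variant of the CRE known from the Jun promoter) or the CArG box of the serum response factor, and to TATAAA on the printed strand.

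Fosl2 (chr5:32136222-32136471, plus strand): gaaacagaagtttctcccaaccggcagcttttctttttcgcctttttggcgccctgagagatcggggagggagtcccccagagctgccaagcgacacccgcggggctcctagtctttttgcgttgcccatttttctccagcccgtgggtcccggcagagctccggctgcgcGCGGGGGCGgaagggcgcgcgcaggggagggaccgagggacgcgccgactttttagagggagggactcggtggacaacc
Junb (chr8:84978749-84978998, minus strand): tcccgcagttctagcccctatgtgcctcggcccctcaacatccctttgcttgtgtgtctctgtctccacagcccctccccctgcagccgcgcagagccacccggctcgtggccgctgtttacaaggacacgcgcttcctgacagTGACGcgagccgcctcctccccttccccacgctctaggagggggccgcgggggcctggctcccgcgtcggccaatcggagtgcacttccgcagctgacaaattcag
Atf3 (chr1:191183334-191183583, minus strand): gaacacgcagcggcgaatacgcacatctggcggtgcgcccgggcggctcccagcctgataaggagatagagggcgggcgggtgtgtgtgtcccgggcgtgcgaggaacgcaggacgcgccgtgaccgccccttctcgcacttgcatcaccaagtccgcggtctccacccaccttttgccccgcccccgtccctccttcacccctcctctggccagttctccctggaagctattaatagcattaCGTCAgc
Fosb (chr7:19310046-19310295, minus strand): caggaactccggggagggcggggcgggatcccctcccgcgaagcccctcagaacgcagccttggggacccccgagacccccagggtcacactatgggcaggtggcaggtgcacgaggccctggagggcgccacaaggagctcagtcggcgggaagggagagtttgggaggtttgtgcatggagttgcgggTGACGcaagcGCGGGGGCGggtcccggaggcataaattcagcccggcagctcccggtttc
Fos (chr12:85473640-85473889, plus strand): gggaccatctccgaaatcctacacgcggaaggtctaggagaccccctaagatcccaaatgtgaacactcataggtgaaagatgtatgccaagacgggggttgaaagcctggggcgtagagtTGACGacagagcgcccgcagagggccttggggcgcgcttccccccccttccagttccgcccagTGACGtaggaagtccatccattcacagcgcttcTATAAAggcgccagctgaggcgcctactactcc
Jun (chr4:95052223-95052472, minus strand): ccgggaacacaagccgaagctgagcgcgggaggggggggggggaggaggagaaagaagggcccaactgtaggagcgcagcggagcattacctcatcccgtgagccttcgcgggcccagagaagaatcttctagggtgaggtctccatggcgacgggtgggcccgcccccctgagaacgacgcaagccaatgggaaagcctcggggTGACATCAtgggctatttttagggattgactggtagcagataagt

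None of the 7 promoters held TGAGTCA in this window, which was present in 4.46% of all 32851 promoters of the same length, and none held the full CRE (1.55% of all) or the CArG box (1.47%). The core TGACG was found in 4 of the 7 (Fos, Fosb, Junb and Atf3), against 17.77% of all promoters. The Egr site GCGGGGGCG was found in Fosl2, from 79 to 71 bases before the start, and in Fosb, from 50 to 42 bases before it, against 2.57% of all promoters. The motif consists of G and C alone, and both windows are richer in these bases (64.4% and 68.8%) than the median promoter (52.4%), so that share is not matched on base composition. GCGTGGGCG was in none of the 7, against 0.54% of all. TGACATCA was found in Jun, against 2.93% of all, and TATAAA in Fos, against 7.59%. These matches describe the letters in the window and not binding.

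Jund, Jun and Fos were the most abundant members in the siNC libraries. Expressed per kilobase of the longest coding transcript, the median level in siNC was 86.4 CPM per kb for Jund, 67.5 for Jun and 57.5 for Fos. Not divided by length, Jun (median 215 CPM) stood above Jund (144 CPM) in siNC. The first rank of Jund thus depends on its annotated length of 1668 bases. Junb followed with 34.4 CPM per kb, and the ranges of these neighbors in the order did not overlap. Ier2 (13.1 CPM per kb) and Fosl2 (10.1 CPM per kb) overlapped, and Atf3 (5.29 CPM per kb) and Arc (3.83 CPM per kb) lay below them. Fosl1 (1.09 CPM per kb) and Fosb (1.05 CPM per kb) were the lowest and overlapped. In siEgr2 the order of the upper 6 genes was the same, but Jund overlapped Jun and Jun overlapped Fos, with medians of 79.1, 70.5 and 61.5 CPM per kb.

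**Figure D1:**
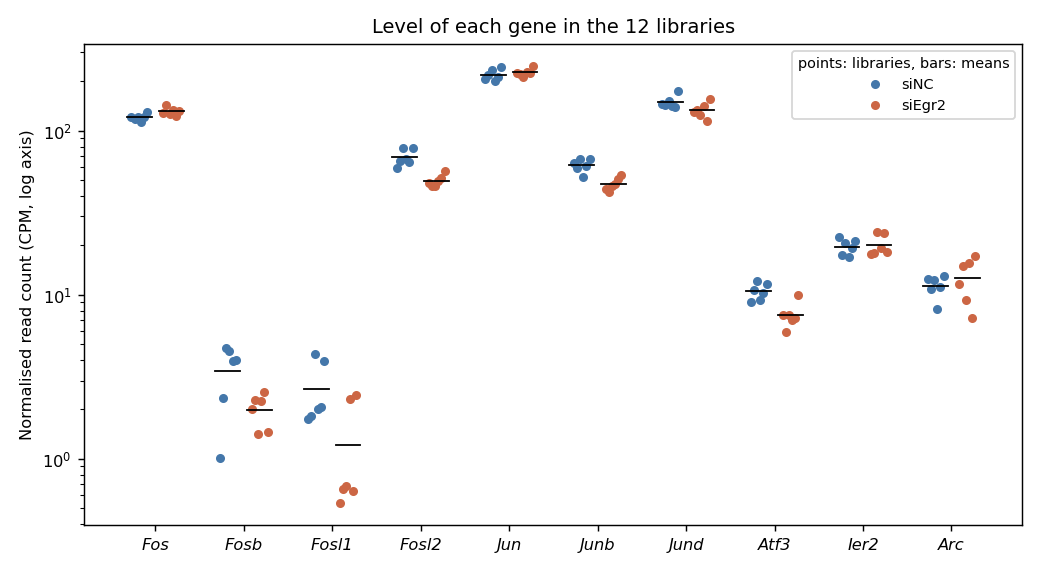
Normalized read count (CPM, log axis) of each gene in the 6 siNC and 6 siEgr2 libraries, with the group means as bars. Among the 10 genes, only the Fosl2 points of the groups do not overlap. They lie at 58.9 to 78.8 CPM in siNC and 45.8 to 56.4 CPM in siEgr2. Of all tested genes, 7.00% were lower and 4.15% higher without overlap, so that this count lies near the background.

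None of the 10 genes was called between siEgr2 and siNC when a call required both an adjusted p below 0.05 and a log2 fold change beyond 0.5 in either direction, while 7.72% of all tested genes were called (edgeR, quasi-likelihood). Fosl2, Junb and Atf3 passed the adjusted p alone, all 3 lower in siEgr2, with log2 fold changes from -0.49 to -0.38. None passed it in the higher direction. Across all tested genes, 11.3% passed the adjusted p lower and 8.57% higher. At an unadjusted p under 0.05 there were 7 of the 10 genes (Fos, Fosb, Fosl1, Fosl2, Junb, Jund and Atf3), against 32.0% of all tested genes. This count was 5 to 7 in the alternative fits. A two-sided exact permutation test of single genes gave p = 0.102 for Fosb and p = 0.0628 for Jund, and p under 0.05 for the others named. The median log2 fold change of the 10 genes was -0.27, and that of all tested genes was 0.0046.

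DESeq2 called 1 of the 10 genes, Fosl1, and limma-voom called 0, where they called 1477 and 1305 of all 16600 tested genes. The fold changes of Fosl2 and Atf3 lay close to the threshold, so that leaving out 1 library could bring them over it. Without siNC replicate 1, 3 genes were called (Fosb, Fosl2 and Atf3), and without siEgr2 replicate 6 also 3 (Fosl1, Fosl2 and Atf3). These fits called 1198 of 16161 and 1339 of 17357 tested genes. Without siNC replicate 4, Atf3 alone was called, and without siEgr2 replicate 4, Fosl1 alone, where 1286 of 16155 and 1245 of 17382 tested genes were. Scaled by library size only, which shifts the median of all genes to -0.18, 5 genes were called lower. That scaling called 1974 of all 16600 tested genes, 88% of them lower.

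**Figure D2:**
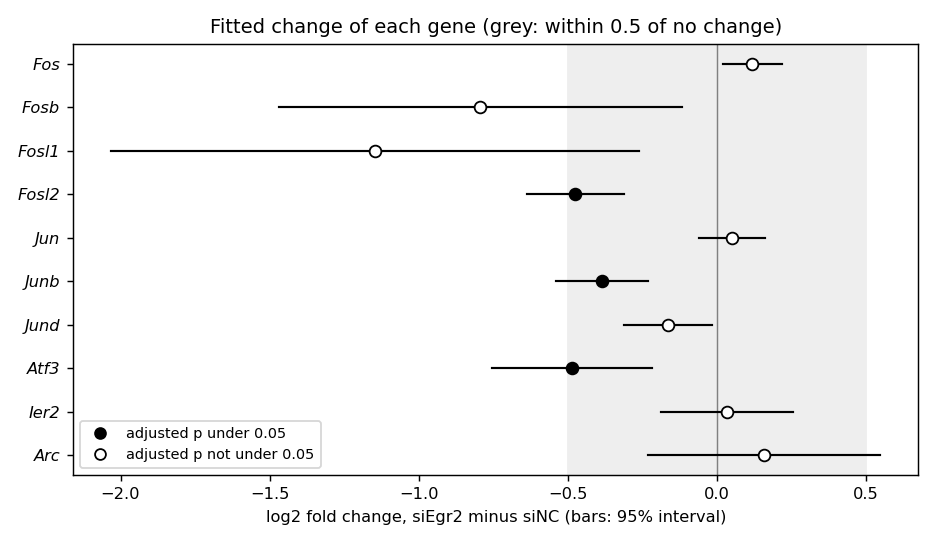
Fitted log2 fold change (siEgr2 minus siNC) of each gene with its 95% interval from edgeR. The filled points, Fosl2, Junb and Atf3, lie between -0.49 and -0.38, inside the grey band of 0.5 on either side of no change, while the intervals of Fosb and Fosl1 are the widest.

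In the Fos family, Fosl2 was lower after Egr2 interference while Fos was not. Fosl2, which encodes Fra-2, a Fos-related partner of Jun that accumulates later and lasts longer than Fos, had 58.9, 66.1 and 78.8 CPM as its lowest, median and highest siNC values. The corresponding siEgr2 values were 45.8, 48.7 and 56.4 CPM. Every siEgr2 library therefore lay below every siNC library, which held for 7.00% of all tested genes in this direction. Of the 10 genes it held for Fosl2 alone, a count near the background. Mean Fosl2 was 68.8 ± 7.98 CPM in siNC and 49.6 ± 3.97 CPM in siEgr2 (SD, n = 6), so its log2 fold change was -0.47 (standard error 0.077, 95% interval -0.64 to -0.31, edgeR adjusted p = 0.000319). The same exact permutation test, of this gene alone and two-sided, gave p = 0.00216, which is the smallest p that 6 against 6 libraries allow. Over all 22 alternative fits, the log2 fold change of Fosl2 ran from -0.66 to -0.43 and the adjusted p stayed under 0.05.

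Fos, the prototype of the family and the subunit most often used as a marker of recent stimulation, had siNC values of 113, 121 and 130 CPM (lowest, median and highest). Its siEgr2 values were 123, 130 and 144 CPM. The groups overlapped, and the coefficient of variation of Fos was 4.60% in siNC, the smallest of the 10 genes, and 5.68% in siEgr2, where that of Jun was smaller at 5.25%. Its log2 fold change was 0.12 (95% interval 0.021 to 0.22, edgeR adjusted p = 0.0848). Scaling by library size alone turned it to -0.065, above the shift of all genes. The interval lies wholly within 0.5 of no change. Without siNC replicate 6, Fos passed the adjusted p in the higher direction (edgeR adjusted p = 0.0492).

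Fosl1 and Fosb were measured on few reads. Fosl1 encodes Fra-1, another Fos-related partner of Jun, and was covered by 60 to 165 reads in each siNC library but by 5 to 31 in each siEgr2 library. Its siNC values were 1.74, 2.04 and 4.38 CPM and its siEgr2 values 0.538, 0.665 and 2.44 CPM (lowest, median and highest). In siEgr2, replicates 4 and 6 stood at 2.32 and 2.44 CPM, within the siNC range, and the other 4 libraries at 0.538 to 0.679 CPM, below every siNC library. The log2 fold change of Fosl1 was -1.15 with a 95% interval of -2.03 to -0.26 (edgeR adjusted p = 0.0660, 0.0166 to 0.148 over the alternatives). Without siEgr2 replicate 4 the log2 fold change was -1.46 (edgeR adjusted p = 0.0263), and without siEgr2 replicate 6 it was -1.45 (edgeR adjusted p = 0.0248).

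Fosb, best known in the brain for a truncated form that accumulates with repeated stimulation, was covered by 35 to 167 reads in each siNC library and by 15 to 30 in each siEgr2 library. Its siNC values were 1.02, 3.98 and 4.74 CPM, with replicate 1 the lowest. Its siEgr2 values were 1.42, 2.13 and 2.56 CPM. The siEgr2 libraries thus fell within the siNC range, and the log2 fold change was -0.79 (95% interval -1.47 to -0.12, edgeR adjusted p = 0.0945). Without siNC replicate 1 the log2 fold change of Fosb was -0.98 (edgeR adjusted p = 0.00746). The counts do not distinguish the full-length and truncated forms.

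In the Jun family, Junb was lower in siEgr2, with no change detected in Jun under TMM scaling. Junb, which often dampens the activity of Jun dimers and is induced together with Fos, had siNC values of 51.9, 62.3 and 67.4 CPM and siEgr2 values of 42.4, 46.7 and 53.6 CPM (lowest, median and highest). Only siNC replicate 4, the lowest of its group, lay within the siEgr2 range. Mean Junb was 61.8 ± 5.80 CPM in siNC and 47.4 ± 4.19 CPM in siEgr2 (SD, n = 6), so its log2 fold change was -0.38 (95% interval -0.54 to -0.23, edgeR adjusted p = 0.00124). Over the 22 alternative fits it ran from -0.57 to -0.36, and the adjusted p stayed under 0.05.

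Jun, the most potent activator of the family and a substrate of the stress kinase JNK, had siNC values of 200, 215 and 244 CPM and siEgr2 values of 212, 225 and 248 CPM. The groups covered nearly the same range. The log2 fold change of Jun was 0.051 with a 95% interval of -0.059 to 0.16 (edgeR adjusted p = 0.546), so that a change of 0.5 in either direction lies outside the interval. The value was 0.021 without siEgr2 replicate 6 and 0.086 without siNC replicate 6. With library size only, its sign turned to -0.13 and it passed the adjusted p in the lower direction (edgeR adjusted p = 0.0471), with a value again above the shift of all genes. Jund, which is present in most resting cells and responds little to stimulation, had siNC values of 140, 144 and 175 CPM and siEgr2 values of 114, 132 and 155 CPM. These overlapped, and the log2 fold change of Jund was -0.16 (95% interval -0.31 to -0.016, edgeR adjusted p = 0.116). Its highest value, 175 CPM, came from siNC replicate 6, and without that library the log2 fold change was -0.11. Without siEgr2 replicate 6 it was -0.21 (edgeR adjusted p = 0.0303). Jund also passed the adjusted p in the lower direction with the replicate block (0.0356), with no filter (0.0413) and with library size only (0.000385), at log2 fold changes of -0.17, -0.21 and -0.35.

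The shares of Fos, Fosl2 and Jun in their families did not overlap between the groups, while those of Junb and Jund and both summed levels did. Summed per kilobase, the Fos family stood at 66.0 to 76.7 CPM per kb in siNC and 67.2 to 76.3 CPM per kb in siEgr2. Within this sum, the share of Fos was 78.6% to 85.0% in siNC and 85.8% to 89.6% in siEgr2, without overlap. The share of Fosl2 was 13.3% to 16.5% in siNC and 9.18% to 11.8% in siEgr2. Fosl1 and Fosb together made up the small remainder in each library. The Jun family summed to 176 to 218 CPM per kb in siNC and 167 to 201 CPM per kb in siEgr2. The share of Jun within it was 34.5% to 36.7% in siNC and 38.8% to 42.1% in siEgr2, without overlap, and that of Junb was 16.3% to 18.8% and 13.6% to 16.8%, with overlap. Jund, the largest share of this family by median, stood at 45.2% to 48.2% in siNC and 41.1% to 46.4% in siEgr2, also with overlap. Shares within a family are not independent of each other, and they describe mRNA and not the dimers formed. They were not tested.

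**Figure D3:**
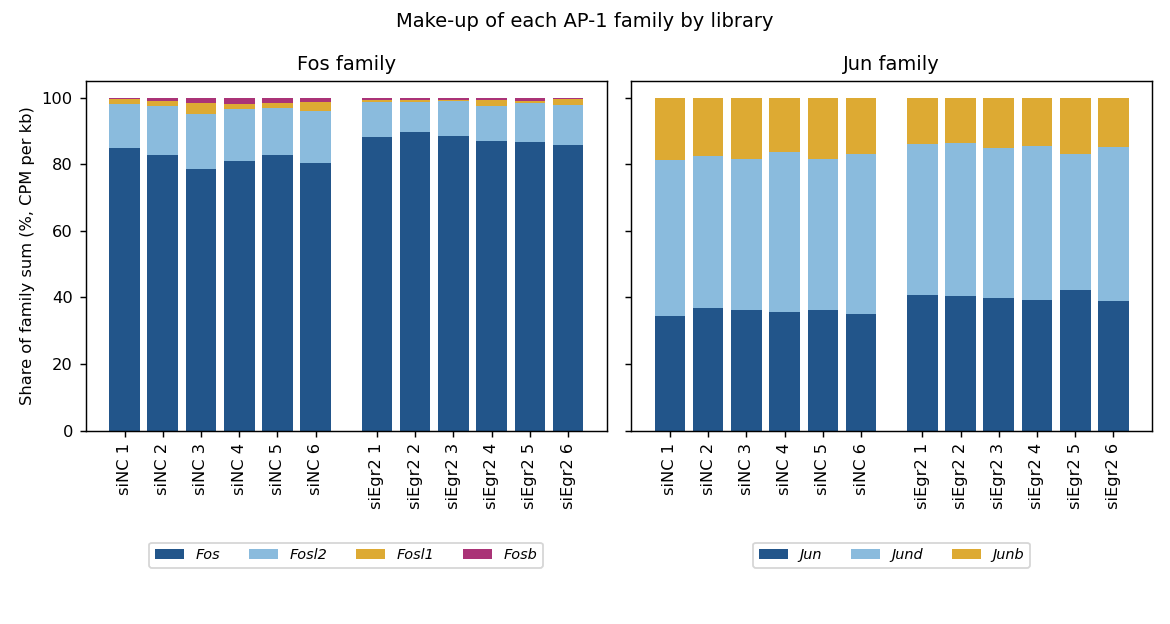
Share of each subunit in the sum of its family (percent of CPM per kilobase of the longest coding transcript), 1 bar per library. The dark Fos segment ends at 78.6% to 85.0% in siNC and at 85.8% to 89.6% in siEgr2, and the dark Jun segment at 34.5% to 36.7% and 38.8% to 42.1%.

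Ratios of counts within a library do not depend on how the libraries are scaled. The ratio of Fosl2 to Fos was 0.484 to 0.652 in siNC and 0.318 to 0.428 in siEgr2, and that of Junb to Fos was 0.460 to 0.557 and 0.294 to 0.413. Of the 9 other genes, only these 2 had a ratio to Fos without overlap, both lower, as did 11.1% of all tested genes. Relative to Jun, 4 of the 9 had a lower ratio without overlap (Fosl2, Junb, Jund and Atf3), against 7.26% of all tested genes. The ratio of Junb to Jun was 0.260 to 0.309 in siNC and 0.191 to 0.227 in siEgr2. The ratio of Jund to Jun was 0.651 to 0.715 and 0.510 to 0.626. The ratio of Fos to Jun overlapped, at 0.518 to 0.594 in siNC and 0.532 to 0.648 in siEgr2.

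Atf3, a stress-induced member of the ATF/CREB family that pairs with Jun proteins, was lower in siEgr2. Its siNC values were 9.07, 10.5 and 12.1 CPM and its siEgr2 values 5.94, 7.35 and 9.94 CPM (lowest, median and highest). Only siEgr2 replicate 6 reached into the siNC range. Mean Atf3 was 10.5 ± 1.24 CPM in siNC and 7.52 ± 1.32 CPM in siEgr2 (SD, n = 6), so its log2 fold change was -0.49 (95% interval -0.76 to -0.22, edgeR adjusted p = 0.0120). With every library thinned to the smallest total, the log2 fold change of Atf3 was -0.38 (edgeR adjusted p = 0.117), so that its difference was not detectable at that depth.

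Ier2 and Arc did not differ beyond the spread between libraries. Ier2, a short nuclear protein induced by growth factors, had 17.0, 19.9 and 22.5 CPM in siNC and 17.7, 18.6 and 24.2 CPM in siEgr2. Its log2 fold change was 0.034 (95% interval -0.19 to 0.26, edgeR adjusted p = 0.860), and its sign turned in 5 of the 22 alternative fits, library size only among them. Arc, known in neurons as an activity-induced regulator of AMPA receptor endocytosis, had 8.20, 11.7 and 13.0 CPM in siNC and 7.17, 13.3 and 17.2 CPM in siEgr2. Arc varied more in siEgr2 than in siNC, with coefficients of variation of 30.9% and 15.4%. Its log2 fold change was 0.16, with a 95% interval of -0.23 to 0.55 (edgeR adjusted p = 0.603) that does not exclude a change of 0.5. The value was 0.054 without siEgr2 replicate 6 and 0.26 without siEgr2 replicate 5, and scaling by library size alone gave -0.032.

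Single libraries stood at the end of their group's range for several genes. In siEgr2, replicate 6 had the highest level of its group for 7 of the 10 genes and the lowest for 0. In siNC, replicate 3 was highest for 5 and replicate 6 for 4, while replicate 4 was lowest for 5 and replicate 1 for 4. The replicate 6 libraries are the deepest of siNC and among the shallower of siEgr2.

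The 3 genes that passed the adjusted p were lower in siEgr2, and covariation of these genes with markers across libraries was not tested. Astrocyte markers had a median log2 fold change of -0.68, with 5 of 6 called lower. Of the 4 tested vascular and fibroblast markers, 2 were called lower. By the adjusted p, 3 of 7 myelinating OL markers and 2 of 6 neuron markers were also lower, and 1 neuron marker and 4 of 5 precursor markers were higher, 2 of them (Pdgfra and Cspg4) called. The part of cell type content, depth or ribosomal RNA share in the lower levels of Fosl2, Junb and Atf3 was not tested. Fos and Jun had log2 fold changes of 0.12 and 0.051 with TMM scaling.

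Other genes of the pathway were examined as lists. Of 13 further AP-1 partners (Atf, Batf, Jdp and Maf proteins), 10 were tested and 0 were called by edgeR, where 7.72% of all tested genes were, with 3 at an unadjusted p under 0.05 (32.0% of all tested genes) and 1, Mafg, past the adjusted p (log2 fold change -0.24), where 11.3% of all tested genes passed it lower. These counts lie near the background. Of 42 other immediate early genes, all were tested, 6 were called lower and 0 higher, where 5.08% of all tested genes were called lower. The 6 were Ptgs2 (log2 fold change -1.08), the inducible prostaglandin synthase, Hbegf (-1.08), a ligand of the EGF receptor, Ier3 (-0.77), a survival factor, Ccn1 (-0.64), a matricellular protein, Gadd45b (-0.62), a stress sensor that activates p38 and JNK, and Zfp36 (-0.55), which destabilizes AU-rich mRNAs. By the adjusted p alone 12 were lower and 5 higher, where 11.3% and 8.57% of all tested genes were, so that the higher count lies near the background. The 5 higher ones were Nr4a1 (0.42), Plk2 (0.41), Myc (0.34), Phlda1 (0.27) and Egr1 (0.25). Without overlap between the groups, 9 of the 42 were lower (the 6 called genes, Klf6, Mcl1 and Rhob), against 7.00% of all tested genes, and 3 were higher (Nr4a1, Plk2 and Myc), against 4.15%. The median log2 fold change of the list was -0.095. The astrocyte markers fell in the same libraries (5 of 6 called lower, median -0.68), and their part in the lower genes of this list was not tested.

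Among 22 kinases and factors that act on immediate early promoters, 1 was called, a share no larger than the 7.72% of all tested genes. By the adjusted p alone 5 were lower (Mrtfb, Elk3, Mapk3, Mapk10 and Map2k1) and 1 higher (Mapk7), against 11.3% and 8.57% of all tested genes. The called gene was the actin-regulated coactivator of serum response factor Mrtfb (log2 fold change -0.93, from 28.7 to 15.1 CPM). Srf itself had a log2 fold change of -0.13 (edgeR adjusted p = 0.290), and the median of the list was -0.053. The count was 2 when siNC replicate 2, 3 or 6 or siEgr2 replicate 2, 3 or 4 was left out. Of 10 MAP kinase phosphatases, which are themselves induced by this signaling and shut it down, 9 were tested and 2 were called, both lower, where 5.08% of all tested genes were called lower. These were Dusp5 (-0.79) and Dusp9 (-1.88, with 36 to 50 reads per library in siNC and 0 to 18 in siEgr2). The count of phosphatases was 1 when any library other than a replicate 4 was left out. Dusp1 and Dusp6, which act on JNK and p38 and on ERK, had log2 fold changes of 0.16 and -0.039 and did not pass the test.

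Genes known to respond to AP-1 were mostly lower. Of 18 such genes, 16 were tested and 12 were called, all lower, against 5.08% of all tested genes called lower, and the median log2 fold change was -0.79. The astrocyte markers moved the same way, with 5 of 6 called lower and a median of -0.68, and their part in the fall of this list was not tested. The list was written with earlier results of these data known, and Mmp3, Tgfb1 and Il6 were singled out by the study from these libraries, so the count is no independent evidence. The largest falls were those of the matrix metalloproteinases Mmp10 (-2.97, with 16 to 28 reads per library in siNC and 0 to 2 in siEgr2) and Mmp3 (-1.84) and of the chemokine Ccl2 (-1.67). Mmp13 fell from 15.8 to 5.09 CPM (-1.64) and Timp1, an inhibitor of metalloproteinases, from 30.0 to 13.3 CPM (-1.17). Hbegf and Ptgs2 belong to this list as well. Hmox1 (-0.55) had the smallest change among the called genes of the list. Ccnd1, the cyclin D1 gene, had a log2 fold change of 0.077, Plau of -0.37, Plaur of -0.76 and Mmp12 of -0.37, and none of these 4 passed the test. Mmp9 and Il6 had too few counts to be tested, with at most 23 and 27 counts in any library.

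The promoters of Mmp3 and Mmp13 are given as examples that hold TGAGTCA, or its reverse complement TGACTCA, and TATAAA. Mmp10 also holds both but was measured on fewer reads. RefSeq promoters (GRCm38.p6) were matched for 11 of the 18 genes, and 6 of them (Mmp3, Mmp10, Mmp12, Mmp13, Plaur and Il6) held the AP-1 site in the 250 bases before the start. The share of all promoters is 4.46%, but genes were put on the list because AP-1 acts on them. Capitals mark the AP-1 site and TATAAA.

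Mmp3 (chr9:7445572-7445821, plus strand): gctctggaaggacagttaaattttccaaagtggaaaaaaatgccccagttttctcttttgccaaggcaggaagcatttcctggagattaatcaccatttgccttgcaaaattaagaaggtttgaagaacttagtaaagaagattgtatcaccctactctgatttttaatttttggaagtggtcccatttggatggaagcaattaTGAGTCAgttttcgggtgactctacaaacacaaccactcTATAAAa
Mmp13 (chr9:7272264-7272513, plus strand): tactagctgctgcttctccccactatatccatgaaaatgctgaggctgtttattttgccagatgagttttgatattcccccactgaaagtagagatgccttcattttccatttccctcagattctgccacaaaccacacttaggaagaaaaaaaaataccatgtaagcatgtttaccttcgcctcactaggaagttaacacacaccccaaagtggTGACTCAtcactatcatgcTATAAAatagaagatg

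**Figure D4:**
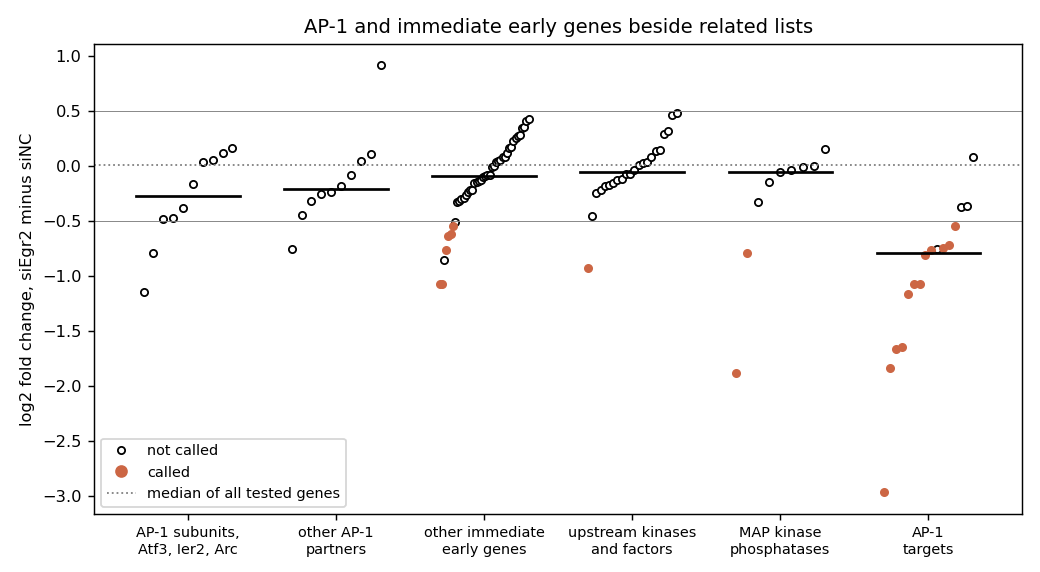
Log2 fold change (siEgr2 minus siNC) of every tested gene in each list, with called genes filled and the median of each list as a bar. The 10 AP-1 and immediate early genes have a median of -0.27 and no called gene, while the AP-1 target list has a median of -0.79 and 12 called genes.

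The profile of Fosl2, the gene of the set with the smallest adjusted p, was closest to those of Slc7a5, Fzd2, Slc6a9, Lgr4 and Ppp2r5a among 12392 genes whose mean log2 CPM was 2 or more. Likeness was the root mean square distance between log2 CPM profiles over the 12 libraries, each centered on its mean, and was 0.080 for Slc7a5, an amino acid transporter, and 0.085 for Ppp2r5a, where the median gene stood at 0.31. The 5 genes had log2 fold changes from -0.52 (Lgr4) to -0.41 (Ppp2r5a).

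The mRNAs of this set differ in the AU-rich pentamer ATTTA, a feature of unstable transcripts, in their 3′ untranslated regions (longest coding transcript, GENCODE M21 on GRCm38). Fosl2 holds 8 copies in 4653 bases, Fos 4 in 815, Jun 4 in 1233, Atf3 3 in 1186 and Junb 2 in 485. Fosb, Fosl1 and Jund hold 1 each, and Ier2 and Arc hold 0. As a density, Fos has 4.91 copies per kb and Junb 4.12, which 8.0% and 11.95% of 20515 genes reach, and the median of the 10 genes is 1.80 per kb against 1.27 for all genes. The nonamer TTATTTATT occurs in Fos and Fosl2, and in 7.74% of all genes.

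The genes lie on 8 chromosomes of GRCm38. Jun (chromosome 4, 95049034 to 95052222), Junb (chromosome 8, 84974484 to 84978718), Jund (chromosome 8, 70698949 to 70700616) and Ier2 (chromosome 8, 84661331 to 84662852) consist of 1 exon in their longest coding transcript. Fos (chromosome 12, 85473890 to 85477273), Fosb (chromosome 7, 19302696 to 19310051), Fosl1 (chromosome 19, 5447547 to 5455946), Fosl2 (chromosome 5, 32135801 to 32157842) and Atf3 (chromosome 1, 191170296 to 191218039) have 4 exons and Arc (chromosome 15, 74669083 to 74672570) has 3. Exons of 4 members overlap a gene on the opposite strand, and the strand setting of the counting is not given in the sources used here, so reads of the partners cannot be told apart. The overlap covers 1163 of 2033 exonic bases of Fosl1 (with Ccdc85b), 877 of 1668 of Jund (with Gm11175), 232 of 3189 of Jun (with Junos) and 173 of 2301 of Junb (with Prdx2). None of the 4 partners passed the test, with log2 fold changes of -0.090, 0.27, 0.11 and 0.0029 in this order.

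**Figure D5:**
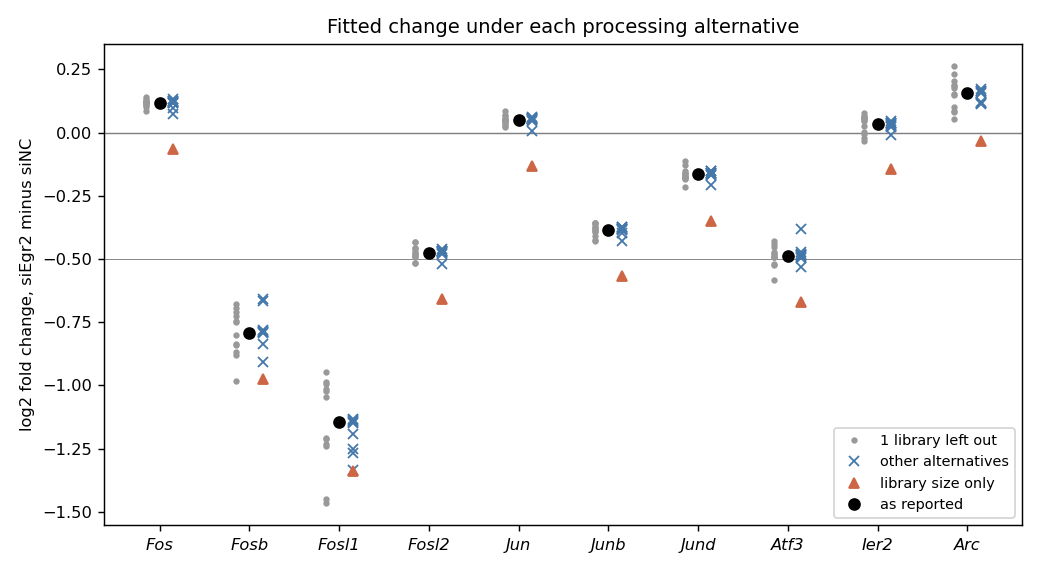
Log2 fold change (siEgr2 minus siNC) of each gene as reported, with 1 library left out, with library size only and under the other alternatives. Library size only lowers each of the 10 values, turning Fos, Jun, Ier2 and Arc below 0, while Fosl2, Junb and Atf3 stay below 0 throughout.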

How the data were processed

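RNA-seq of primary mouse OLs was analyzed in 6 siNC and 6 siEgr2 libraries, grouped by their titles. The authors extracted total RNA with TRIzol, prepared Illumina libraries from it and deposited unnormalized read counts for each gene symbol. Per the labels, the build was mm10. The aligner, counting program and strand setting are not given in the sources used here. In the table, 1 blank entry was left out.

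The counts were fitted with edgeR 4.0.16 under R 4.3.3 (filterByExpr, TMM, robust quasi-likelihood test, Benjamini-Hochberg adjustment over 16600 genes), and the procedure was tested on simulated data. Single genes were also compared by a two-sided exact permutation test over 924 assignments on log2 of CPM plus 0.5. Alternatives were RLE, upper-quartile and library-size scaling, DESeq2 1.42.0, limma-voom (limma 3.58.1), no filter other than leaving out genes without reads, a CPM of at least 1 in 6 libraries, a replicate block, thinning, structural and mitochondrial RNA genes left out, each library left out, other thresholds and a pseudocount of 1. Totals were 8034251 to 39383014 counts per library.

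The members, lists and alternatives were chosen with earlier results of these data known. All 10 members were named, and of each list every called gene, or beyond 6 the 3 largest changes in each direction. Further genes of the lists, the promoters printed, the pairs of genes set in ratio and the searched motifs were chosen after values were seen. A chi-square statistic, averaged over genes, was 7.09 to 36.7 for the 30 same-group pairs of libraries, where sampling noise gives about 1, so no library is a copy of another.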

Additional observations from a re-analysis of the deposited data

Results flagged for a closer look

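In 2 of 24 groups of 6 values examined, 1 library stood apart from the rest, where chance gives about 1.2 such groups, and in both it was siNC replicate 6. The siNC library of replicate 6 had 39383014 counts, against 28682946 to 32460116 in the other siNC libraries. The same library had a Jund level of 175 CPM, where the others of its group had 140 to 152 CPM, and without it the log2 fold change of Jund was -0.11 in place of -0.16. The part of the depth of this library in its Jund level was not tested.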

How the results depend on the processing

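The directions of Fosb, Fosl1, Fosl2, Junb, Jund and Atf3 were lower in all 22 alternative fits, and no alternative called any of the 10 genes higher. With library size only, the signs of Fos (-0.065), Jun (-0.13), Ier2 (-0.14) and Arc (-0.032) turned, 5 of the 10 genes were called and 7 passed the adjusted p lower, 1 further AP-1 partner and 2 upstream genes were called, and Egr2 was called at -0.70. This scaling called 1974 of 16600 tested genes, against 1281 with TMM. It shifts the median of all genes to -0.18, and 88.0% of called genes were lower against 65.9% with TMM. Ier2 also turned with no filter (-0.0096) and without siNC replicate 4, siEgr2 replicate 3 or siEgr2 replicate 5 (-0.031 to -0.0032), within a range of -0.031 to 0.077 over all fits that omit 1 library. Of the 10 genes, DESeq2 called 1, the fit with no filter 2 and the fit without a fold change threshold 3. Of all tested genes, DESeq2 called 1477 of 16600 and the fit with no filter 1701 of 30142. When single libraries were omitted in turn, 0 to 3 of the genes were called, 3 to 5 passed the adjusted p lower and 0 to 1 higher, while 1 to 2 upstream genes and 1 to 2 phosphatases were called. Those fits called 1114 to 1339 of all tested genes. Thinning to the smallest total gave 2 upstream genes and 1 phosphatase. The causes were not tested.

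Same-numbered libraries of the groups did not deviate together over all tested genes (correlations of -0.039 to 0.042, and 2 of 6 correlated best with their own number). Low-count genes enter these correlations, so they cannot exclude a shared culture or batch. With the replicate block, 1 of the 10 genes was called (Fosl1), 5 passed the adjusted p lower (3 without the block) and 2 upstream genes were called. That fit called 1124 of 16600 tested genes. Fosb and Fosl1 rest on the fewest reads of the 10 genes.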
